A study of Drosophila melanogaster with 3 samples.

Results

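The regions described here are the Hey-bound regions of the Drosophila embryo that lie between genes, away from promoters, and carry neither of the DNA sites known for proteins of this family. They belong to the list of 3319 regions left after the authors' filter on irreproducible discovery rate (IDR), which keeps regions ranked alike by replicate samples. A region was counted when its summit, the base of highest signal, lay more than 500 bp from every annotated transcription start site (TSS), inside no annotated gene span, and had neither CACGTG (the class B E-box) nor CACGCG (the class C site) within 100 bp on either strand. The rule found 356 regions, 10.7% of the 3319 (95% Wilson interval 9.72 to 11.8, counting error over regions only). For comparison, 293 distal intergenic regions had at least 1 of the sites, 990 regions lay more than 500 bp from a TSS inside a gene span without a site, and 980 lay within 500 bp of a TSS without a site.

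The assay was ChIP-seq for Hey on 6 to 24 h embryos, pooled over both sexes and used whole, of 1 stable transgenic line in which Hey bears a C-terminal GFP. All 3 biological replicates formed a single group. The comparisons are therefore between kinds of region, or between the highest and the lowest regions listed for each replicate. The labels conflict over what the libraries are: their descriptions say input control, their assay titles and antibody say ChIP for a transcription factor, and the files do not settle it. The libraries differed in how many of these regions they ranked highly, with replicate 1 lowest and replicate 2 highest. Read depth was unknown from the region lists. The signal value of a region is the peak caller's own, of unstated scale, and serves here to order the regions of 1 list.

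Hey belongs to the basic helix-loop-helix (bHLH) Orange proteins, as do Hairy and the Enhancer of split factors. Proteins of this family mostly act as repressors, and Hairy and the Enhancer of split factors recruit the corepressor Groucho. In the fly embryo Hey is known from neurons born with active Notch signalling. Proteins of this family bind class B and class C sites in vitro, so regions with neither site are places where the rule found no such sequence near the summit. Distal intergenic regions are the part of the genome where many fly enhancers lie, far from the promoters they act on.

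The sequences under 8 of the strongest of these summits are shown because the letters at the centres are the main feature that the rule did not set. Each run holds 50 bp on either side of the summit on the plus strand of the release 6 genome, with every match to CCACCC, to GCCACC or to CACCCC on either strand in capitals. These 3 C-rich 6-mers are described below.
CG13898, 3L:802835-802935: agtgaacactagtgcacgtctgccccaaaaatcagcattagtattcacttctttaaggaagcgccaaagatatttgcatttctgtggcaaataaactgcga
lncRNA:CR45643, 3R:16222431-16222531: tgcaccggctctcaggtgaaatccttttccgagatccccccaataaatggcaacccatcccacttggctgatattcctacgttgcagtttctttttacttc
CG7560, 3L:11422108-11422208: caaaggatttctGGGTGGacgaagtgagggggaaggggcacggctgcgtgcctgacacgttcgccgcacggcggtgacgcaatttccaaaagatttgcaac
jp, 2L:9567469-9567569: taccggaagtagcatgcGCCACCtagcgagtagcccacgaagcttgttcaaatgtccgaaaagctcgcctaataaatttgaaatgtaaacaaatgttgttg
lncRNA:CR45292, 2L:19015797-19015897: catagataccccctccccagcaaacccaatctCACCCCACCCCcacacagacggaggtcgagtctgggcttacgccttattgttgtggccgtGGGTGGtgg
robl37BC, 2L:19010187-19010287: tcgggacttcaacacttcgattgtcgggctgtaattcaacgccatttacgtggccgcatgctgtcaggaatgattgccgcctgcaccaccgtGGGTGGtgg
sp3, 3R:21520328-21520428: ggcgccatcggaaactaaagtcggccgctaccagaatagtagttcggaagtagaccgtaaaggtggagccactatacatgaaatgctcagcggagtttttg
CG13315, 3L:9094989-9095089: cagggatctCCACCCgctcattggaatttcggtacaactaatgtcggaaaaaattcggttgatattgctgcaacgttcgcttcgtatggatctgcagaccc

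Of these 8 windows, those at CG7560, jp, lncRNA:CR45292, robl37BC and CG13315 held at least 1 marked 6-mer, and the other 3 held none. The window at lncRNA:CR45292 had 17 marked bases, including a run of CACCCC and CCACCC that overlap each other. GC content in the 8 windows ran from 40.6% at CG13898 to 60.4% at lncRNA:CR45292. Within the wider window of 100 bp on either side, 11 of the 20 regions with the highest signal had 1 of the 3 C-rich 6-mers.

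The summits were rich in G and C and were flanked by sequence poor in G and C. GC content within 100 bp of the 356 summits averaged 47.7% (SD 7.89 over regions, median 49.0%, quartiles 41.7% and 53.7%). It averaged 39.0% in equally long windows lying 400 to 600 bp away, and 42.6% at 1000 bp. The centre was therefore above, and the band near 500 bp below, the level farther out. In windows of 51 bp the mean was 47.9% at the summit, 38.6% at 450 bp to the left and 38.1% at 450 bp to the right, and 42.6% and 42.7% at 1000 bp. Distal intergenic regions with a site had the same shape with a higher centre, 50.8%, and 38.6% and 42.6% at 500 and 1000 bp. Regions inside gene spans without a site had a lower centre, 44.5%, with 40.2% and 41.9%, and regions near a TSS without a site had 42.1% at the centre and 42.6% at 500 bp.

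**Figure D1:**
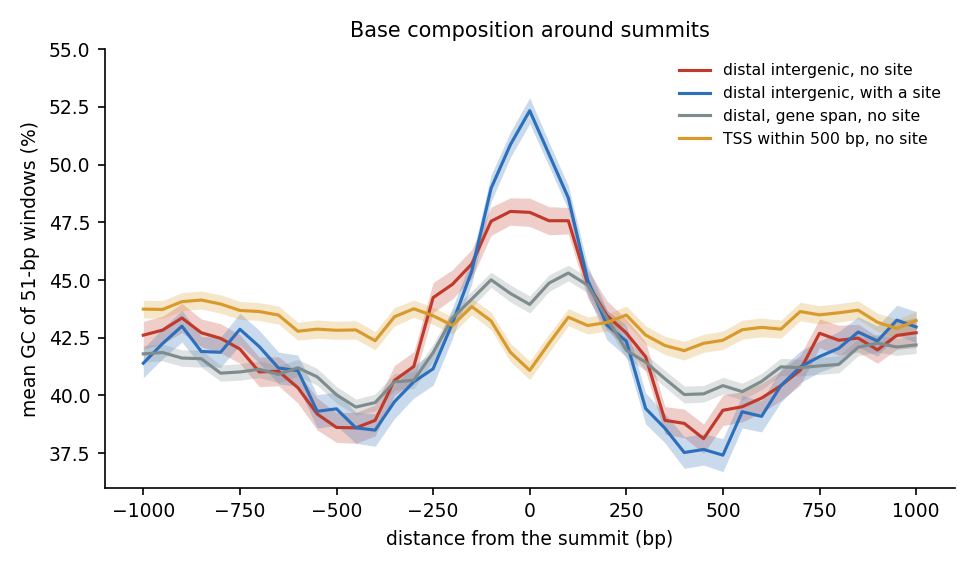
Mean GC content (%) in 51-bp windows against distance from the summit (bp), for 4 classes of IDR regions. Lines are means over regions and bands are 1 standard error over regions. Distal intergenic regions without a site peak at 47.97% just left of the summit and fall to 38.1% at 450 bp, between the classes with a site and inside gene spans at the centre.

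The replicate lists gave the same shape one by one. Each replicate list held 30000 regions, and the rule for distal intergenic regions without a site was applied to its 3319 highest and 3319 lowest regions. In the highest regions, GC at the centre was 47.1%, 47.5% and 46.9% in replicates 1, 2 and 3, and in the lowest regions it was 45.7%, 44.4% and 43.3%. The highest regions were above the lowest in every replicate, with means of 47.2% ± 0.293 and 44.5% ± 1.20 (SD, n = 3; exact permutation test, two-sided p = 0.1, Benjamini-Hochberg adjusted p = 0.118 over 20 measures). A p of 0.1 is the smallest that 3 values against 3 allow, so no comparison over replicates here can pass 0.05.

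The drop from the centre to the band at 500 bp was 7.74, 8.28 and 7.30 percentage points of GC in the highest regions of replicates 1, 2 and 3. It was 5.01, 4.46 and 2.60 points in the lowest regions, so the groups did not overlap (7.78 ± 0.491 against 4.02 ± 1.26, SD, n = 3; exact permutation test, two-sided p = 0.1). The class in the lowest lists had a shallower form of the same profile. The pooled list of 30000 regions is named by the authors as peaks and background for the IDR step. The lowest regions of lists of the same length may therefore be background, and whether Hey binds them was not tested. The replicate lists are not independent of the IDR regions: an IDR summit lay within 100 bp of 73.8%, 61.1% and 56.1% of the class in the 3 highest lists, and of at most 0.153% in the lowest lists.

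Across all 6-base sequences, those rich in G and C were more frequent at the centres and those rich in A and T less frequent. Presence within 100 bp of the summit was compared with presence in 1 window 400 to 600 bp away, on a side drawn at random with a fixed seed, by an exact sign test over the 356 regions with Benjamini-Hochberg adjustment over all 6-mers. Leaving out CACGTG and CACGCG, which the rule sets, 142 of 2078 6-mers (6.83%) passed an adjusted p of 0.05 as more frequent at centres, and 127 (6.11%) as less frequent. No 6-mer with 2 or fewer G or C bases was called more frequent, and none with 4 or more was called less frequent. Among the 196, 116 and 145 regions found in both other replicates without replicate 1, 2 or 3, the counts were 40, 3 and 7 more frequent and 42, 8 and 20 less frequent. Of the 191 6-mers with 5 G or C bases, 61 were called more frequent, and of the 36 with none, 33 were called less frequent. Regions are not independent samples, so these p-values describe this list and not the spread between embryos.

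**Figure D2:**
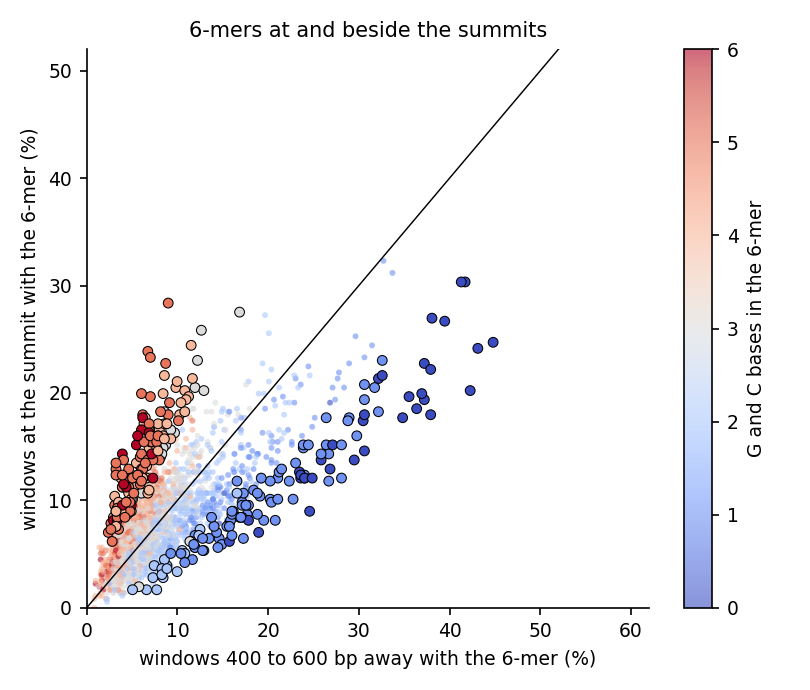
Share of the 356 summit windows (%) holding each of 2078 6-mers, against the mean share of the windows 400 to 600 bp to either side (%). Colour gives the number of G and C bases, larger outlined points passed the sign test, and the line marks equal shares. None of the 142 points called above the line has 2 or fewer G or C bases, and 16 have 3. None of the 127 called below it has 4 or more, and 2 have 3.

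The 3 marked C-rich 6-mers were far more frequent at the centres than beside them. CCACCC, which reads GGGTGG on the other strand, was present at 101 centres (28.4%, 95% Wilson interval 23.9 to 33.3) and in 8.99% of flanking windows, a ratio of 3.16. It lay only at the centre in 89 regions and only in the tested flank in 24 (exact sign test, adjusted p = 1.18e-06). CACCCC was present at 23.9% of centres and 6.74% of flanks (ratio 3.54, exact sign test, adjusted p = 1.91e-06), and GCCACC at 23.3% and 7.02% (ratio 3.32, adjusted p = 1.96e-05). The median ratio over the 191 6-mers with 5 G or C bases was 1.82, and the ratios of these 3 ranked 10th, 4th and 6th among them. At least 1 of the 3 was present at 152 centres (42.7%, 37.7 to 47.9) and in 15.3% of flanks. They were singled out after their values were seen. In the smaller sets found without replicate 2, CCACCC (adjusted p = 0.0813), CACCCC (0.334) and GCCACC (0.156) missed the threshold by the exact sign test. Without replicate 3, CCACCC (adjusted p = 0.0559) and CACCCC (0.437) missed it by the same exact test and GCCACC kept it.

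By the size of the ratio, most of the other leading 6-mers were also rich in C. CTCCCC was at 13.5% of centres and 3.23% of flanks (ratio 4.17), CCTCCC at 12.9% and 3.23%, and GCACCC at 12.4% and 3.23% (ratio 3.83). CCCCGC (ratio 3.64), CCCTCC (3.38), CCCCTC (3.30) and AGGGTG (3.19) came next, with adjusted p between 4.04e-05 and 0.0262. AGCGTG, which on its other strand reads CACGCT and differs from the class C site only in its last base, was at 10.4% of centres and 3.09% of flanks (ratio 3.36, exact sign test, adjusted p = 0.00130).

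A second kind of sequence held C and A in alternation. ACACAC was present at 92 centres (25.8%, 21.6 to 30.6) and in 12.6% of flanks, a ratio of 2.04 where the median for 6-mers with 3 G or C bases was 1.07 (exact sign test, adjusted p = 1.99e-05). Its ratio ranked 5th among those 639. CACACG was at 21.6% of centres and 8.57% of flanks (ratio 2.52, exact sign test, adjusted p = 1.58e-05). The longer repeat CACACACA was at 12.9% of centres and 4.21% of flanks, only at the centre in 42 regions and only in the tested flank in 5 (exact sign test, adjusted p = 7.37e-07 over 30 motifs). The call for CACACG was lost without replicate 2 (exact sign test, adjusted p = 0.377), without replicate 3 (0.549) and in the 178 regions of higher signal (0.183). Its log2 ratio fell from 1.29 to 0.59 without replicate 3. Without replicate 2 the exact sign test also lost ACACAC (adjusted p = 0.0622) and CACACACA (0.125), and ACACAC was lost in the 178 regions (0.103). The share of soft-masked bases, which marks repeats in the genome file, was 14.2% at centres and 18.4% in flanks. These CA sequences were not particular to the class. ACACAC was at 25.9% of intergenic centres with a site, 26.9% inside gene spans without one and 18.1% near a TSS without one. CACACG was at 25.3%, 17.0% and 11.9% of the same centres. In the highest replicate regions CACACACA was at 11.7% of the class, 10.6% of intergenic regions with a site and 10.6% inside gene spans without one.

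Most 6-mers with the lowest ratios had 2 or fewer G or C bases, with CCTAAC (3 such bases, ratio 0.341) as the exception among the 10 named. The lowest ratio was that of TCCTAA, at 1.69% of centres and 7.72% of flanks (ratio 0.218, exact sign test, adjusted p = 0.00130). The palindromes TTTAAA (8.99% and 24.6%, ratio 0.366, adjusted p = 1.16e-05) and ATATAT (7.02% and 18.96%, ratio 0.370, adjusted p = 3.07e-05) were less frequent at centres by the exact sign test. AAATAT was at 20.2% of centres and 42.3% of flanks. Of the motifs searched by name, the homeodomain core TTAATTA was at 4.21% of centres and 11.2% of flanks (adjusted p = 0.00259 over 30 motifs by the exact sign test), the TATA box TATAAA at 15.2% and 27.1% (adjusted p = 0.00259), and the A tract AAAAAAA at 9.27% and 18.96% (adjusted p = 0.00635).

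Other variants of the E-box gave little. Of the 9 CANNTG sequences other than CACGTG, only CAAGTG passed the test, at 20.5% of centres and 11.9% of flanks (ratio 1.72, exact sign test, adjusted p = 0.0421 over all 6-mers), and it lost the threshold against the right flank alone (adjusted p = 0.123) and under 5 other alternatives. The median ratio of the 9 was 1.17, against 1.06 for all 6-mers. Of the 23 6-mers that differ by 1 base from CACGTG or CACGCG, 7 were called more frequent and none less frequent, with a median ratio of 2.00. Many of them are rich in G and C: over all 6-mers 6.83% were called more frequent, but 51 of 491 with 4 G or C bases (median ratio 1.43) and 61 of 191 with 5 (median ratio 1.82). The most frequent of the 7 was CACACG, and by the exact sign test CACTCG (15.4% and 7.02%, adjusted p = 0.00201) and CACGCA (17.1% and 8.57%, adjusted p = 0.0139) were among them. The N-box CACNAG was at 27.0% of centres and 18.3% of flanks, which did not pass over the 30 motifs.

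The choice of flank changed these counts. Against flanks 800 to 1000 bp away, where GC content is higher than at 500 bp, 22 6-mers were more frequent and 10 less frequent, and 21 and 8 of them were among those called against the nearer flanks. CCACCC and CACCCC (both adjusted p = 2.59e-05), GCCACC (adjusted p = 0.0394), ACACAC (adjusted p = 0.000611), CACACG (adjusted p = 0.000987) CCCCGC and CCCCTC (both adjusted p = 8.41e-05) and the repeat CACACACA kept their calls by the exact sign test. TTTAAA (adjusted p = 0.0841), AAATAT (adjusted p = 0.262) and ATATAT (adjusted p = 0.504) lost theirs by the exact sign test. So did AGCGTG (adjusted p = 0.160 by the exact sign test), as well as TCCTAA and the C-rich sequences CTCCCC and then CCTCCC, along with CCCTCC, besides GCACCC and also AGGGTG.

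**Figure D3:**
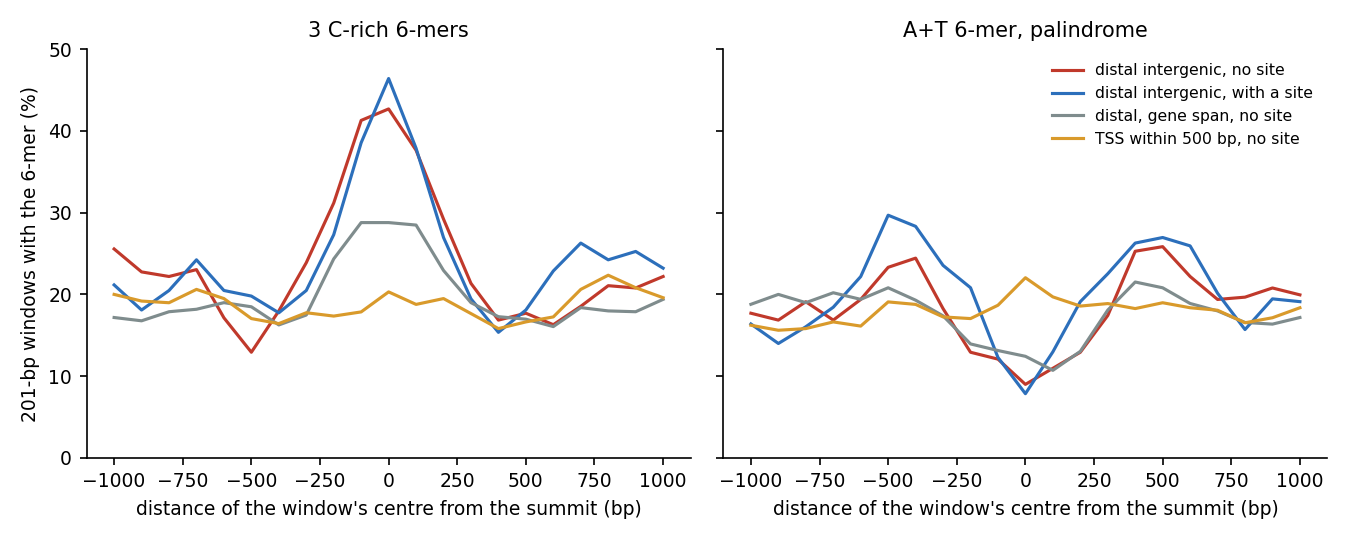
Share of 201-bp windows (%) that hold at least 1 of the 3 C-rich 6-mers (left) or TTTAAA (right), against the distance of the window's centre from the summit (bp), for 4 classes of IDR regions. Values for distal intergenic regions without a site follow, with left before right. The C-rich share is 42.7% at the summit, 12.9% and 17.7% at 500 bp, and 25.6% and 22.2% at 1000 bp. The TTTAAA share is 8.99% at the summit, 23.3% and 25.8% at 500 bp, and 17.7% and 19.9% at 1000 bp.

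The C-rich 6-mers were also frequent in the distal intergenic regions that do carry a site. At least 1 of the 3 was at 46.4% of those centres (40.8 to 52.1), at 28.8% of centres inside gene spans without a site (26.1 to 31.7) and at 20.3% of centres near a TSS without a site (17.9 to 22.9). Over the 3319 highest regions of each replicate, the class between genes without a site had 37.7%, 44.1% and 40.7% in replicates 1, 2 and 3 (40.8% ± 3.20, SD, n = 3). The class inside gene spans had 29.5% ± 0.487, lower in 3 of 3 replicates (exact permutation test, two-sided p = 0.1, adjusted p = 0.211 over 40 comparisons). The intergenic class with a site had 43.1% ± 1.56, with 44.8%, 42.8% and 41.7% in replicates 1, 2 and 3, above the class without a site in 2 of 3 (two-sided exact p = 0.4, adjusted p = 0.471). In the 3319 lowest regions, the intergenic class without a site had 28.5%, 21.6% and 22.5%, below the highest regions of every replicate (24.2% ± 3.76; two-sided exact p = 0.1, adjusted p = 0.118). Among the 356 regions the share was 43.7% among the 119 of highest signal, 46.6% among the next 118 and 37.8% among the 119 of lowest signal, with overlapping intervals.

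CTTATC, which reads GATAAG on the other strand and holds the core bound by GATA factors, was ordered otherwise over the classes. It was singled out after its values were seen. It was at 16.6% of the intergenic centres without a site and 10.5% of their flanks, a difference that missed the threshold (exact sign test, adjusted p = 0.0547). It was at 26.1% of centres inside gene spans without a site and at 8.53% of intergenic centres with a site. In the highest replicate regions of the intergenic class without a site it was at 21.0%, 13.8% and 13.7% of centres in replicates 1, 2 and 3, and in the lowest at 8.28%, 7.55% and 8.25% (16.1% ± 4.23 and 8.03% ± 0.413, SD, n = 3; exact permutation test, two-sided p = 0.1). Replicate 1 was above replicates 2 and 3 in the highest list, and no such gap was seen in the lowest. The gap in the highest lists was not particular to the class. Inside gene spans without a site CTTATC was at 33.7%, 19.8% and 20.9% in replicates 1, 2 and 3. Between genes with a site it was at 11.4%, 7.74% and 7.46%.

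Distal intergenic regions without a site were seldom among the strongest of the IDR list. Their signal values ran from 115.3 to 882 with a median of 164, against a median of 203 and a highest value of 1914 for distal intergenic regions with a site, and 173 for all 3319. Regions inside gene spans without a site had a median of 161, and regions near a TSS without a site 176. The highest distal intergenic region without a site ranked 47th, and 4 of the class were among the first 100. In 5 equal steps of the ranking, from the strongest, the class made up 8.58%, 9.34%, 10.9%, 11.0% and 13.9% of the regions, while the class with a site made up 14.0%, 8.43%, 7.54%, 6.48% and 7.68%.

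Within each replicate the class was likewise more common among the lowest listed regions than among the highest. Distal intergenic regions without a site made up 7.59%, 13.8% and 12.4% of the 3319 highest regions of replicates 1, 2 and 3, and 19.6%, 26.7% and 22.3% of the 3319 lowest. The lowest lists were above the highest in every replicate (22.9% ± 3.58 against 11.2% ± 3.25, SD, n = 3; exact permutation test, two-sided p = 0.1, adjusted p = 0.1 over 6 classes). The class with a site went the other way, from 2.05% ± 0.131 of the lowest to 8.05% of the highest (6.33%, 8.95% and 8.89% in the 3 replicates) (two-sided exact p = 0.1). For reference, sequence between genes and more than 500 bp from a TSS, with or without a site, makes up 27.1% of the arms. Whether the lowest shares differ from that coverage was not tested. A larger share among the lowest regions was not particular to the class. Regions inside gene spans without a site made up 54.1% ± 2.22 of the lowest and 30.3% ± 1.27 of the highest. Regions near a TSS without a site went the other way, with 14.3% ± 1.74 and 31.6% ± 5.38.

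Replicate support of the 356 regions differed between libraries. A summit among the 3319 highest regions of a replicate lay within 100 bp for 188 of them in replicate 1 (52.8%), 287 in replicate 2 (80.6%) and 230 in replicate 3 (64.6%). All 3 replicates listed 100 of the regions so (28.1%, 95% Wilson interval 23.7 to 33.0), 157 were found in 2 replicates, 91 in 1 and 8 in none. Without replicate 1 as a criterion, 55.1% were found in both others, and the shares without replicates 2 and 3 were 32.6% and 40.7%. For distal intergenic regions with a site the shares were 63.1%, 85.0% and 85.3%, and 50.9% (45.2 to 56.5) were found in all 3. The mean over replicates was 66.0% ± 14.0 without a site and 77.8% ± 12.7 with one, lower without a site in 3 of 3 replicates (p = 0.3, adjusted p = 0.9 over 3 comparisons, by an unpaired two-sided exact permutation test). Both classes were measured in the same 3 libraries, which that test does not take into account, and an exact sign-flip test within 3 pairs cannot go below p = 0.25. The other classes without a site had means close to that of the 356 regions. The mean was 66.4% ± 4.52 inside gene spans and 67.9% ± 1.93 near a TSS. In replicates 1, 2 and 3 the shares were 65.9%, 71.1% and 62.1% inside gene spans, and 70.1%, 67.0% and 66.5% near a TSS. Replicate 1 was lowest for the 356 regions but highest near a TSS. Found in all 3 replicates were 31.8% of regions inside gene spans and 36.3% of those near a TSS.

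**Figure D4:**
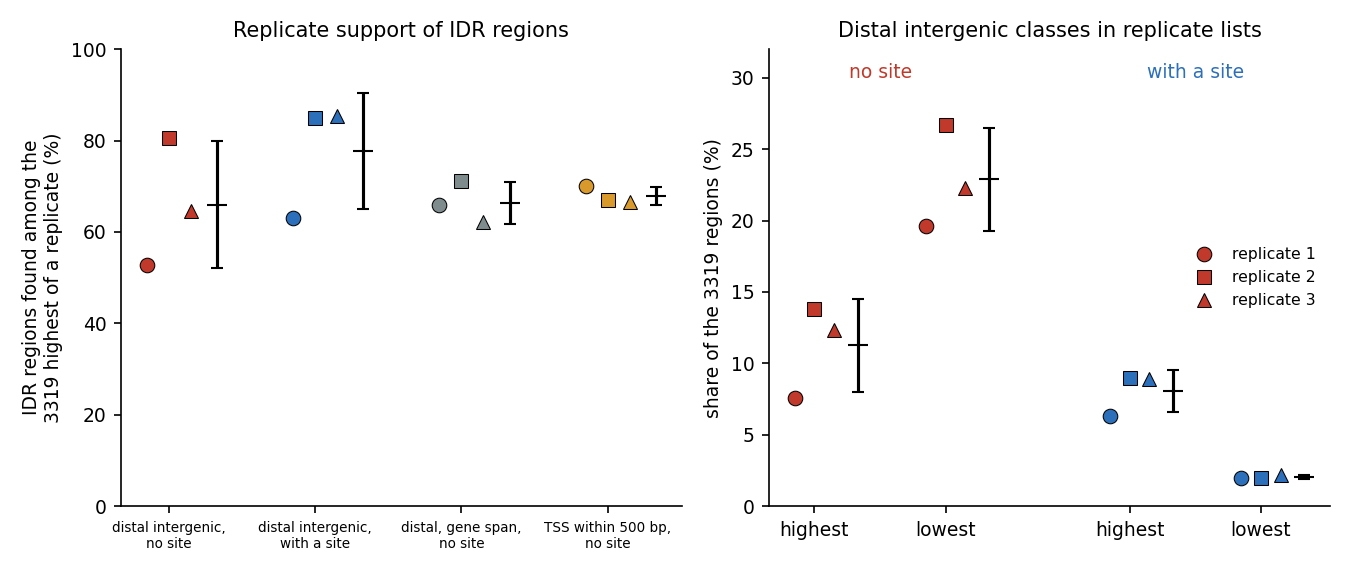
Left, share of IDR regions (%) with a summit within 100 bp among the 3319 highest regions of replicates 1, 2 and 3, for 4 classes. Right, share (%) of the 3319 highest and 3319 lowest regions of each replicate that are distal intergenic, without or with a site. Black bars are mean ± SD of 3 replicates. The share without a site is 7.59% to 13.8% of the highest and 19.6% to 26.7% of the lowest regions.

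The regions found by some replicates and not others were unevenly spread. Replicates 2 and 3 without replicate 1 listed 96 of them (27.0%), against 18.7% of all IDR regions, replicate 1 alone listed 27 (7.58%, against 11.8%), and replicate 2 alone listed 46 (12.9%, against 7.62%). In the 27 found by replicate 1 alone, CTTATC was at 37.0% of centres (21.5 to 55.8) and GC averaged 44.5%. In the 96 found by replicates 2 and 3 alone, CTTATC was at 11.5% (6.52 to 19.4) and GC averaged 47.95%, and the 3 C-rich 6-mers were at 47.9% against 29.6%. These groups were formed from the replicate ranks themselves, and no test was made.

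The regions lay at a median of 2809 bp from the nearest TSS (502 to 34538 bp), closer than the 3991 bp of distal intergenic regions with a site. They sat in intergenic intervals with a median length of 9740 bp. The nearest TSS belonged to a protein-coding gene for 229 regions (64.3%), to a non-coding RNA gene for 121 and to a tRNA gene for 6. Of all 356, 220 (61.8%) lay upstream of that TSS, and 225 (63.2%) were more than 2 kb from any TSS. Only 1 summit lay in an annotated transposable element. Another IDR summit lay within 1 kb of 111 regions (31.2%), and one with a class B or class C site within 1 kb of 44 (12.4%) and within 5 kb of 141 (39.6%).

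Class B and class C sites were most frequent just beyond the window that the rule searched. In the ring 100 to 200 bp from the summit, 49 regions (13.8%, 10.6 to 17.7) had a site, against 8.15% at 200 to 300 bp, 7.58% at 300 to 400 bp and 5.90% at 400 to 500 bp. From 500 to 900 bp the rings held sites in 5.62% to 9.55% of regions. The ring at 100 to 200 bp held a site in 18.1% of distal intergenic regions with a nearer site and in 10.7% of regions inside gene spans without one. With the search widened to 200 bp the class would hold 302 regions, and with 50 bp it would hold 414.

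The regions nearest to the limits of the rule ranged widely in signal. CG7560, whose region had the seventh highest signal of the class (617), had a class C site on the minus strand whose far end lay 101 bp from the summit, so that it was not wholly within 100 bp, in 3L:11422048-11422074. The capitals in the next line mark that site as it reads on the plus strand.
CG7560, site beyond the limit: aatgcgctgCGCGTGacttccagttaa
Regions at PsGEF (signal 202) and oc (signal 216) had a site 101 and 102 bp away, and just outside the limit regions at Oatp58Dc (343) and lncRNA:CR44033 (329) had one at 100 bp and chrb (124) at 99 bp. The regions closest to a TSS lay 502 bp from lncRNA:CR40172 (signal 150), 503 bp from lncRNA:CR44933 (125) and 512 bp from lncRNA:CR43700 (158). Just outside were regions 495 bp from lncRNA:CR44852 (186), 485 bp from by (179) and 481 bp from CG17896 (417).

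The 20 regions of highest signal were well supported by the replicates, since 18 were found in all 3 and 2 in a pair of them. The strongest lay on arm 2R, 12.3 kb downstream of the TSS of Su(z)2 (FBgn0265623), a Polycomb group gene and relative of Posterior sex combs, in the interval shared with CG13323. Its signal was 882, and its ranks in replicates 1, 2 and 3 were 41, 68 and 56. A second region of that interval, 11904 bp from the TSS of CG13323, had a signal of 658 and ranks of 104, 78 and 341. Both were high in every replicate, and an IDR region with a site lay 864 bp from the first.

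Next in order was a region 1166 bp downstream of the TSS of CG13898 (FBgn0035161), beyond the end of that gene and in the interval shared with a tRNA gene, with a signal of 768. Its ranks there were 275, 55 and 24. A group of 3 such regions lay there, with signals from 376 to 768, all found in every replicate, and no IDR region with a site lay within their span. The third region, 5075 bp from Ugt37C1, a UDP-glycosyltransferase gene, had a signal of 750 and ranks of 63, 101 and 129.

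Protein-coding genes were nearest to 16 of the 20. A region 3363 bp downstream of the TSS of CycB, the gene of a mitotic cyclin, had a signal of 594 and ranks of 154, 141 and 135, the most even of these. Its GC content was 36.3%, below the average of flanking sequence. The region 769 bp upstream of jp, which encodes junctophilin, a protein that ties the endoplasmic reticulum to the plasma membrane, had a signal of 608 and ranks of 648, 79 and 98. The region 629 bp upstream of robl37BC, a dynein light chain gene of the Roadblock family, had 601 and ranks of 403, 186 and 36. For both, replicate 1 ranked the region lower than the other replicates did.

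Among regulators, the region 4425 bp upstream of slp2, a forkhead gene of segmentation, lay between slp1 and slp2 with a signal of 556 and ranks of 657, 84 and 80. The region at sp3 (signal 573, ranks 372, 72 and 206) lay 550 bp from its TSS, in the interval shared with the homeobox gene C15. A region near COX7AL2 (463), a cytochrome oxidase subunit gene, ranked 79 in replicate 1 and 483 in replicate 2 and was not listed in replicate 3. A region near CG33798 (473) ranked 146 and 236 in replicates 2 and 3 and was not listed in replicate 1. The remaining regions of the 20 were nearest to lncRNA:CR44761, lncRNA:CR45643, CG7560, lncRNA:CR45292, CG13315, CG42331, CG15258, lncRNA:CR44184 and CNT2, a nucleoside transporter gene, with signals from 715 to 424. By the nearest end of a gene body, lncRNA:CR43650 replaces Ugt37C1, lncRNA:CR44149 replaces jp, CG32032 replaces CG13315, CG13631 replaces CG42331, ana replaces CNT2 and lncRNA:CR44184 replaces lncRNA:CR45292.

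Many regions of the class had neighbours. Another IDR summit lay within 10 kb of 77.0% of them, and of 71.0% of distal intergenic regions with a site. When summits of this class only were chained at up to 10 kb, 194 stood alone and the other 162 fell into 54 groups. The largest had 10 regions over 14.7 kb of arm 2L, between RpL30, a ribosomal protein gene, and Sidpn, a bHLH-Orange gene. Their signals ran from 158 to 604, and 7 of the 10 were found in all 3 replicates. Of the 16 IDR regions within that span 3 had a class B or class C site. The strongest of the 10 lay 3945 bp downstream of lncRNA:CR45292 (604, ranks 236, 109 and 121), the next beside robl37BC, and others at lncRNA:CR44184 (432) and CG15172 (384). None was nearest to the TSS of Sidpn itself, whose promoter is at the right end of the map. At least 1 of the 3 C-rich 6-mers was at the centre of 8 of the 10.

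The second largest group had 9 regions over 21.9 kb of arm 3L, downstream of hry, the pair-rule gene hairy and a founding bHLH-Orange repressor. Of them, 2 were nearest to hry, 7225 and 8027 bp from its TSS, with signals of 238 and 147. The first ranked 413, 1982 and 3322 in replicates 1, 2 and 3, and the second ranked 2182, 2017 and 20427, so both were weakest in replicate 3. The other 7 were nearest to lncRNA:CR44526, with signals from 135 to 390, and 2 of the 9 were found in all 3 replicates. The highest of the group (390) ranked 186, 739 and 601. Among the 13 IDR regions of the span, 3 had a site, and the strongest of those had a signal of 957, above every region without one.

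**Figure D5:**
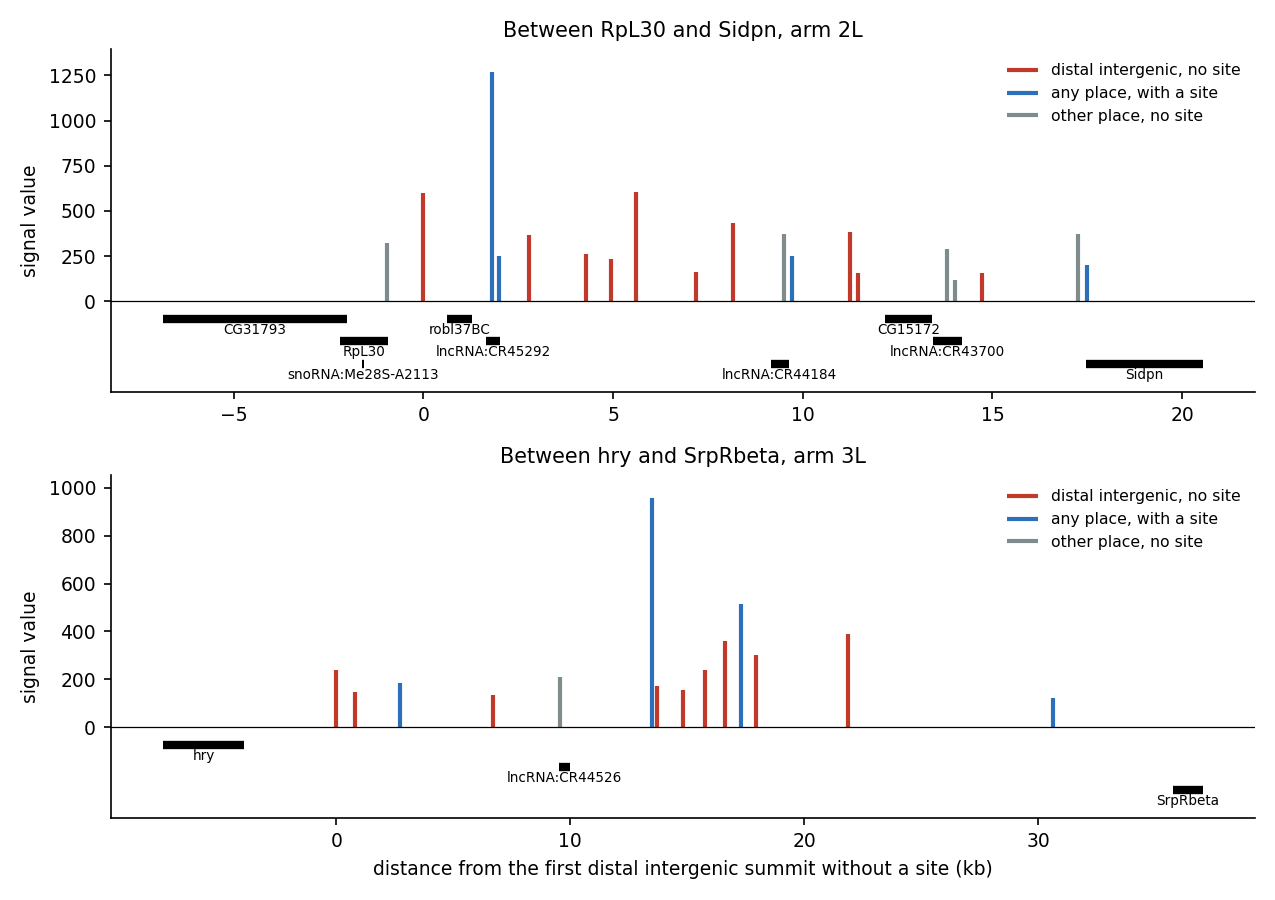
Signal value of IDR regions against distance from the first distal intergenic summit without a site (kb), between RpL30 and Sidpn (top) and between hry and SrpRbeta (bottom), with annotated genes as black bars below. Red lines are distal intergenic regions without a site, blue lines regions with a site and grey lines the rest. The top map holds 10 red lines with signals up to 604 beside a region with a site at 1268, and the bottom map 9 red lines up to 390 beside one at 957.

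Further groups lay at other genes. A group of 7 regions over 20.9 kb of arm 2L lay beside lncRNA:CR45695 and lncRNA:CR44603, in the intervals next to chinmo, a gene of neuronal temporal identity (signals 132 to 327, 2 found in all 3 replicates). Another 7 over 8.45 kb of 2L lay at Hacd1 and the rhodopsin gene Rh5 (123 to 255), with no site among the 7 IDR regions of the span. On arm 2R, 6 regions over 7.39 kb lay between lncRNA:CR44761 and Ppa, an F-box gene, with signals from 119 to 715. In the Enhancer of split complex on 3R, 4 regions lay over 7.18 kb at E(spl)m6-BFM, E(spl)m7-HLH and E(spl)m8-HLH, with signals from 117 to 207 and none found in all 3 replicates.

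The density of the class differed between chromosome arms. Per Mb of intergenic sequence more than 500 bp from a TSS, 2L had 14.9 regions, 3L 9.38, 3R 9.01, 2R 8.33, the fourth chromosome 8.15 and X 7.44, and all arms together had 9.82. In the 3319 highest replicate regions 2L had 9.98, 16.7 and 16.2 per Mb in replicates 1, 2 and 3, against 6.95, 12.6 and 11.3 over all arms. In the lowest lists 2L had 24.3, 28.7 and 22.2 per Mb against 17.98, 24.5 and 20.4 over all arms. There too 2L was above the average. No test was made between arms.

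The nearest TSS belonged to 270 of 18164 annotated genes (1.49%), and 53 of them were nearest to more than 1 region. The gene depends on the rule: 84.8% of regions kept it by the nearest end of a gene body and 64.3% by protein-coding genes only. Counts over lists of genes are given beside that share, with no test. Among genes of bHLH-Orange factors 3 of 12 were nearest, hry and the Enhancer of split repressors E(spl)m8-HLH and E(spl)m7-HLH. The region 672 bp upstream of E(spl)m8-HLH had a signal of 152 and ranks of 5637 in replicate 1 and 2187 in replicate 3, with none in replicate 2. The region 2007 bp upstream of E(spl)m7-HLH had a signal of 117 and ranks of 6514, 1578 and 2297. In the Notch pathway list 2 of 28 were nearest, both Bearded-family genes that dampen Notch ligand activity, E(spl)m6-BFM with regions of 207 and 169 and E(spl)malpha-BFM with 146. Notch-list genes were nearest to 0.843% of the 356 regions, against 0.572% of all IDR regions and 0.341% of distal intergenic regions with a site. For the bHLH-Orange list these shares were 1.12%, 0.422% and 0%.

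Homeodomain genes gave the largest count, 9 of 45, from the longest of the lists. They were nearest to 2.81% of the 356 regions, against 1.33% of all IDR regions and 1.37% of distal intergenic regions with a site. The region 9101 bp upstream of ap, the LIM-homeodomain gene of dorsal wing fate, had a signal of 322 and ranks of 233 and 1164 in replicates 2 and 3, with none in replicate 1. That near oc, the head gap gene orthodenticle, lay 15.5 kb from its TSS with a signal of 216 and ranks of 2841, 935 and 515. Regions at Dr, a gene of dorsal neuroectoderm, had signals of 209 and 187 and ranked 3737 and 6656 in replicate 1 but between 673 and 1364 in the others. The region at inv, the neighbour of engrailed, had 169 and was not listed in replicate 1. For these 4 genes replicate 1 gave the weakest rank or none. The others were vvl, B-H2, B-H1, ems and mirr.

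The remaining lists had 0 to 2 genes each. Segmentation genes (2 of 23) were slp2 and hry, and a second summit in the same region at slp2 had a signal of 181 and was found in no replicate's highest regions. Neuroblast factors (2 of 22) were D, a Sox gene (138), and dac (122), and bHLH genes outside the Orange family (2 of 20) were net (146) and dimm, a gene of neuroendocrine cells (122). Of synaptic genes (2 of 29), VGlut, the vesicular glutamate transporter, had a region with a signal of 172 and ranks of 8189, 1649 and 770, and nAChRalpha1 had 137. Signalling genes (2 of 35) were the Wnt receptor fz (123) and the FGF ligand pyr (117). The list of trachea, gut and fat body (2 of 17) had vvl and fkh, whose region 12.6 kb from the TSS had a signal of 263 and was found in all 3 replicates. The muscle list had Zasp52 (1 of 23, signal 179), and no gene of axon guidance and adhesion (33), glia (14), cuticle (20), the clock (9) or heat shock (14) was nearest.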

How the data were processed

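The lists were deposited by the authors in narrowPeak format on dm6, with 30000 regions per replicate, 30000 for the pooled data and 3319 after IDR. Per the labels, fragments of 200 to 800 bp were made by sonication. The sources used here do not name the aligner, peak caller, IDR version or threshold. Each signal value and −log10 q-value is the authors' own deposited value per region, and the q-value was not used. The summit is the offset from the region start in the last deposited column.

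Genes and TSSs (18164 genes and 23581 TSS positions without transposable elements, 6 arms) came from Ensembl release 115, BDGP6.54, and sequence from the release 6 genome of RefSeq, which shares coordinates with dm6. Coordinates are 1-based. Motifs were searched on both strands, and flanks lay 400 to 600 bp away. Python 3.11.15, numpy 2.4.6, scipy 1.17.1 and matplotlib 3.10.9 were used. Shares have 95% Wilson intervals for counting error only. The sign test was tested on simulated windows whose centres and flanks had the same expected GC content. The centres and flanks of the data differ in GC content, and that setting was not simulated. The 30 motifs and 15 gene lists (322 genes found, 4 symbols not found), and the class itself, were chosen with earlier results of these data known. Named were the 20 regions of highest signal, those at the limits, up to 10 6-mers per direction with the largest ratios at 2% or more of windows, and up to 4 regions per gene list. Replicate numbers pair high and low regions of the same library. Nothing in the labels says which embryos the 3 replicates came from beyond calling them biological replicates.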

Additional observations from a re-analysis of the deposited data

How the results depend on the processing

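The number of regions kept within 1.5 times of 356 under all 7 alternatives (292 with a TSS limit of 1000 bp to 466 with protein-coding genes only). The share found in all 3 replicates, 28.1%, was 19.7% with summits within 50 bp, 34.6% within 200 bp, 18.5% with a reciprocal overlap of 50%, 14.0% with fewer (N/2) and 56.5% with more (2N) regions per replicate, and 32.6% to 55.1% without 1 replicate. Against flanks 800 to 1000 bp away the 6-mers called were 22 more and 10 less frequent and the fixed motifs 1 and 1, and against the left flank 4 fixed motifs were more frequent. In the 178 regions of higher signal the 6-mers were 11 and 16 and 1 fixed motif was less frequent. Restricted to regions found in both remaining replicates, without 1 replicate, the 6-mers were 3 to 40 more frequent and 8 to 42 less frequent, and the fixed motifs 0 to 3 and 0 to 2. These alternatives use 116 to 196 regions. Among single 6-mers and motifs, 114 of 240 alternatives lost the threshold and none changed direction. With the replicate block, the class share of the highest minus the lowest regions was -11.6 points (lower in 3 of 3 replicates, exact sign-flip p = 0.25, the smallest 3 pairs allow) and GC 2.68 points higher (p = 0.25, added after the data were seen). Neither the unpaired nor the blocked form can reach 0.05 with 3 replicates.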
